A study of Mus musculus with 4 samples.

Results

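The genes described here are 8 long noncoding RNAs out of 55573 mouse genes measured: the nuclear RNAs Malat1 and Neat1, and Gas5, Snhg1, Snhg3, Snhg8, Snhg12 and Epb41l4aos, which carry small nucleolar RNAs. They were chosen by name, with no measured value in the rule, and all 8 were found by Ensembl identifier and passed the filter on low values. RNA was sequenced from Fr.C+C' B cells, a sorted stage around the step from pro-B to pre-B cell, taken from the bone marrow of C57BL/6 mice aged 8 to 12 weeks. The 2 libraries WT 1 and WT 2 came from wild type mice, and the 2 libraries KO 1 and KO 2 from mice labelled ADAR1 KO. ADAR1 edits adenosines of paired RNA strands into inosines. The labels name neither the allele nor any Cre driver. They do not give the animal behind each library, so p-values reflect library-to-library spread alone, which can be technical.

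Malat1 is a long RNA kept in the nucleus, where it collects at nuclear speckles rich in splicing factors. Neat1 is the RNA scaffold of paraspeckles, nuclear bodies built on it by proteins such as NONO and SFPQ. The other 6 genes are host genes: their introns release small nucleolar RNAs (snoRNAs), which guide chemical modification of ribosomal and other RNAs. Box C/D snoRNAs direct 2′-O-methylation and H/ACA snoRNAs direct pseudouridylation, while the spliced host RNA itself is often removed by nonsense-mediated decay. Many host genes begin transcription with a short run of pyrimidines, the feature of the 5′ terminal oligopyrimidine (TOP) class that also holds the ribosomal protein genes.

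The start sites of the host genes are shown because this feature is known from both host genes and ribosomal protein genes, whose levels are given side by side further on. Each line gives 45 bases before the RefSeq start and 30 bases from it, 5′ to 3′ on the gene's strand, on build GRCm38.p6. Capitals mark a run of at least 5 C or T that begins with C within 10 bases of the start, and the letters TATANA on either strand between 40 and 16 bases before the start.
Gas5: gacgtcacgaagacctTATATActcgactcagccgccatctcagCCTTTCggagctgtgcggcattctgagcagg
Snhg1: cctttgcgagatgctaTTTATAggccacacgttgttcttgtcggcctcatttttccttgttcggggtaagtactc
Snhg3: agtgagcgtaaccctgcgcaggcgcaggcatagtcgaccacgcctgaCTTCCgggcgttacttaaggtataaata
Snhg8: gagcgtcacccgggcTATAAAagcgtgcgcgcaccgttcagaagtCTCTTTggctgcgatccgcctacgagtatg
Snhg12: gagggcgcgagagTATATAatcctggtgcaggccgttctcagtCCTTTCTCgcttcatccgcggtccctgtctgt
Malat1: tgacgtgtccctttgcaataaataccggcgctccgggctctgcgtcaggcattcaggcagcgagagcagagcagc
These windows lie at chr1:161035121-161035195 on the plus strand for Gas5, chr19:8723442-8723516 on the plus strand for Snhg1 and chr4:132353657-132353731 on the minus strand for Snhg3. The remaining windows lie at chr3:123508307-123508381 on the minus strand for Snhg8, chr4:132308633-132308707 on the plus strand for Snhg12 and chr19:5802643-5802717 on the minus strand for Malat1. Windows are shown for 6 of the 8 genes, and none for Neat1 and Epb41l4aos. The pyrimidine run was found in Gas5, Snhg3, Snhg8 and Snhg12, and in 30.7% of all RefSeq promoters and 56.8% of 74 promoters of cytosolic ribosomal protein genes. TATANA was found in Gas5, Snhg8 and Snhg12, and on the opposite strand in Snhg1, against 3.86% of all promoters for either strand. Among 16 promoters of other listed snoRNA host genes, 8 held the run and 4 TATANA. Malat1 had neither in this window.

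The snoRNAs inside the hosts are shown because they are the products these genes are known for, and because none of those printed had a measured level. Sequences are those of GENCODE M21 on build GRCm38. Capitals mark box C (TGATGA within the first 20 bases) and box D (CTGA within the last 20 bases) of C/D snoRNAs, or the ACA within the last 10 bases of an H/ACA snoRNA.
Snord47: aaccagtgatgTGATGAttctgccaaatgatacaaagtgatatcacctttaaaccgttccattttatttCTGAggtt
Snord80: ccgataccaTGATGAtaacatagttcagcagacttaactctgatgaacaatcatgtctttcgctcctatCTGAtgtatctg
Snord99: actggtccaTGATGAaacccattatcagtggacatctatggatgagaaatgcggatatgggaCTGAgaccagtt
Snora24: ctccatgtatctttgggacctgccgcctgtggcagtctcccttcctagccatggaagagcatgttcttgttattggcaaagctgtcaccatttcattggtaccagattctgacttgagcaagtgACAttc
Snord47 and Snord80 lie in Gas5 (chr1:161038082-161038158 and chr1:161037601-161037681), Snord99 in Snhg12 (chr4:132310691-132310764) and Snora24 in Snhg8 (chr3:123507937-123508066). Among all 1558 snoRNA genes of the files, boxes C and D as spelled here were found in 20.2%, and an ACA in a longer RNA without both boxes in 42.9%. The sequences printed are ones in which a box was found. By the same rules, no box was found in 2 of 10 snoRNA genes of Gas5, 3 of 8 of Snhg1 and 1 of 5 of Snhg12. The annotation places 27 snoRNA genes, some of them listed more than once for 1 position, at 25 positions within the 6 host genes. Gas5 holds 9 positions, Snhg1 8, Snhg12 4, Snhg3 2, and Snhg8 and Epb41l4aos 1 each.

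Of these 27 snoRNA genes, 26 were listed at 0 in every library. The exception was Gm23639, within Epb41l4aos, at 0.48 FPKM in WT 1 and 0 elsewhere, a value that rests on 1 fragment. FPKM, computed by the authors, is the number of fragments scaled to exon length and to library depth. The zeros follow a pattern that holds over all genes. Of 163 snoRNA genes lying wholly inside exons of another gene on the same strand 1 was above 0 in any library (0.613%), and of 15 wholly inside exons on the opposite strand 0 were, against 18.1% of 1313 with no shared exon base. Of 32 single-exon noncoding genes wholly inside exons on the opposite strand 0 were above 0 as well, against 41.9% of 3084 with none shared. The values read as if fragments lying in exons of 2 genes, on either strand, had not been counted. The counting rule is not stated, and a zero for a snoRNA inside a host exon is no measure of that snoRNA.

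The same overlap touches the hosts themselves. Of the exon bases of Snhg3, 86.3% are shared with other genes (Rcc1 and Snora73a on its own strand, Gm17300 on the other), which leaves 135 of 986 bases unshared. The share was 20.9% for Snhg1, 19.6% for Snhg12, 17.8% for Gas5, 15.2% for Snhg8, 7.7% for Malat1, 1.8% for Neat1 and 0 for Epb41l4aos. Exon length moves the levels too, because FPKM divides by it. Transcripts with retained introns, 20 of 25 for Gas5 and 14 of 18 for Snhg1, stretch the annotated exons of Gas5 to 3760 bases and those of Snhg1 to 2969, whereas their other transcripts have medians of 502 and 550 bases. The exon length used is thus 7.49 and 5.40 times that median, and 5.65 and 4.19 times the longest of these other transcripts. Dividing by it gives a lower FPKM than dividing by either of those lengths would. Which transcripts were present was not tested.

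**Figure D1:**
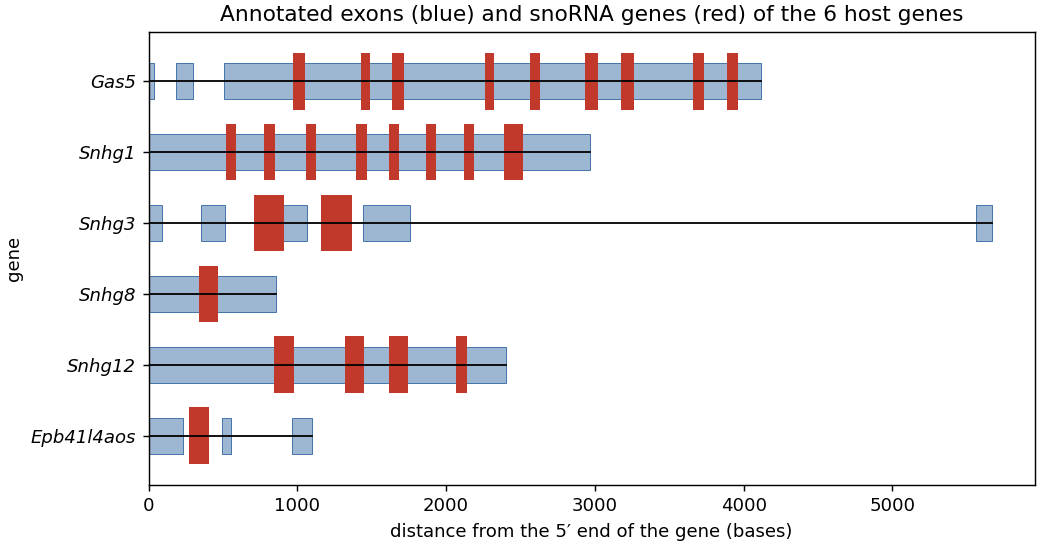
Annotated exons (blue boxes) and snoRNA genes (red boxes) of the 6 host genes, by distance in bases from the 5′ end of each gene. The snoRNAs of Gas5, Snhg1, Snhg8 and Snhg12 lie inside annotated exons, while that of Epb41l4aos lies between exons.

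The libraries held between 15112167 and 16404995 fragments assigned to genes, as estimated from the steps of the low values. The 8 genes took 0.12%, 0.152%, 0.139% and 0.121% of them in WT 1, WT 2, KO 1 and KO 2. All 12 B lineage markers passed the filter, and their summed FPKM was 2387 in WT 1, 2445 in WT 2, 1911 in KO 1 and 1166 in KO 2. The 12 neutrophil markers, which a B cell sort should lack, summed to more than the B lineage list in every library: 27450, 25640, 35870 and 73050 FPKM in the same order. The 9 erythroid markers summed to 1336, 760.4, 355.8 and 650.1 FPKM, the 7 macrophage markers to 275.6, 156.2, 128.0 and 211.6, the 6 T and NK cell markers to 41.62, 38.47, 46.20 and 102.9, and the 6 plasma cell markers to 204.7, 183.8, 108.5 and 88.58. KO 2 therefore held the most RNA of neutrophil genes and the least of B lineage genes. Nkg7 was the largest part of the T and NK cell sum, at 26.52, 22.46, 27.77 and 79.15 FPKM. Cd3e, Cd3d and Klrb1c were not highest in KO 2. Jchain, at 105.85, 91.45, 0.25 and 0.45 FPKM, was the largest part of the plasma cell sum in wild type only. Mzb1 and Xbp1 were not lower in both KO-labelled libraries. In such bulk RNA, fewer cells of a type and less RNA per cell cannot be told apart. Adar, the gene of ADAR1, was at 15.04, 14.62, 15.19 and 16.79 FPKM, so it was not lower in the KO-labelled libraries (limma adjusted p = 0.721). Its level summed over all exons would miss a deletion of part of the gene and leaves the label unchecked.

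By level per exon base, the genes spanned about 1 order of magnitude in wild type. The mean was 105.2 ± 35.9 FPKM for Malat1 (SD, n = 2, as for all means here), 66.4 ± 8.15 for Gas5, 36.57 ± 5.36 for Snhg8 and 31.86 ± 0.417 for Snhg1. Below these stood Epb41l4aos at 25.27 ± 0.481 FPKM, Snhg12 at 14.59 ± 0.198, Snhg3 at 9.42 ± 0.481 and Neat1 at 9.265 ± 0.7. The neighbours Snhg3 and Neat1 did not differ beyond their spread, since their wild type ranges of 9.08 to 9.76 and 8.77 to 9.76 FPKM overlapped. The means of Snhg8 and Snhg1 differed by less than the SD of Snhg8. Every other pair of neighbours in this order had wild type ranges that did not overlap. In the KO-labelled libraries the order changed at the low end, where Neat1 (10.2 ± 0.297 FPKM) stood above Snhg3 (6.31 ± 0.58 FPKM) with ranges that did not overlap. Neat1 rested on 2879 to 3328 fragments a library and Snhg3 on 88 to 152. FPKM divides Snhg3 by all 986 exon bases, of which 135 are unshared, so if fragments in shared bases went uncounted its level per countable base is higher. Its place in the order, against Neat1 and the others, is therefore not settled by these values.

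**Figure D2:**
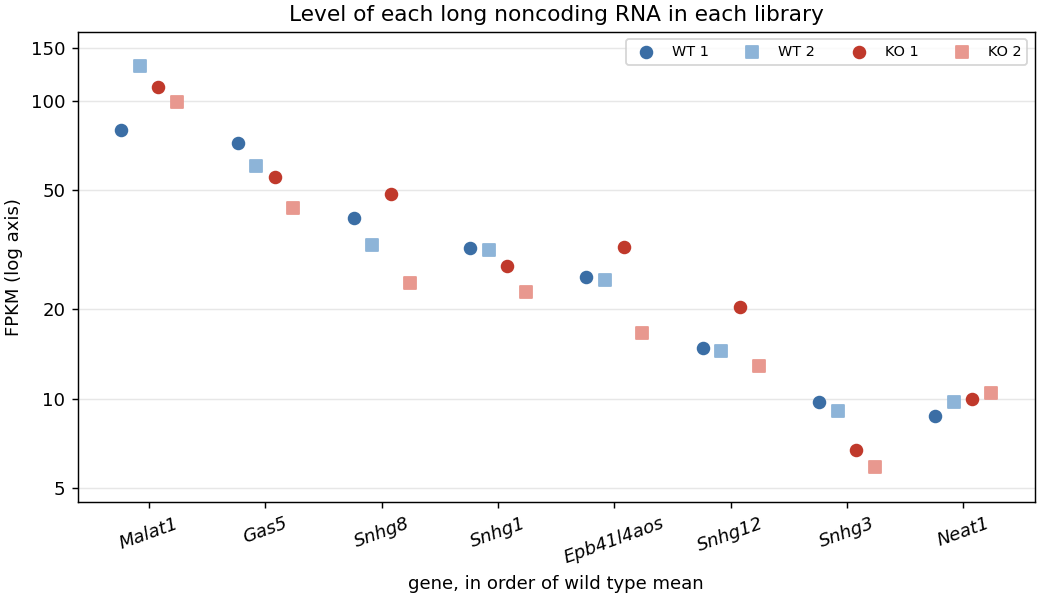
FPKM of each gene in each library on a log axis, with genes ordered by wild type mean and 1 point a library. Malat1 shows its widest gap between the wild type libraries (79.79 and 130.55), Snhg3 is lower in both KO-labelled libraries, and Snhg8 and Epb41l4aos are highest in KO 1 and lowest in KO 2.

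Wild type and KO-labelled libraries were compared next, and none of the 8 genes passed the test. Snhg3, Gas5 and Snhg1 were lower in KO 1 and KO 2 than in both wild type libraries, with group means at 0.67, 0.747 and 0.794 times wild type. Snhg8, Snhg12 and Epb41l4aos were above wild type in KO 1 and below it in KO 2, so that their group means hid opposite libraries. Malat1 varied more within wild type than between groups, and Neat1 was at 1.1 times wild type. Limma on log2(FPKM + 1) called 27 of all 13281 genes tested (0.203%) at a Benjamini-Hochberg adjusted p under 0.05, and 0 of the 27 were higher. With levels scaled to the B lineage list the split was 16 higher and 60 lower, and without KO 1 it was 563 higher and 385 lower. At an unadjusted p under 0.05, Snhg3 alone of the 8 was called, as a lower gene. In this main fit, the count of 1 is to be read against 12.5% of all genes in either direction, 6.02% lower and 6.45% higher. It became 0 with voom, where 1810 of 13278 genes had such a p. With B lineage scaling it was 0 as well, against 808 of 13281 genes. The count rose when KO 1 or KO 2 was left out and fell when WT 1 or WT 2 was, and so did that over all genes. Groups did not overlap for 4 of the 8 genes and for 51.4% of all genes.

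Malat1 (ENSMUSG00000092341, GRCm38 chromosome 19, 5795690 to 5802672, minus strand, lincRNA) stood at 79.79 and 130.55 FPKM in WT 1 and WT 2, and at 111.21 and 99.02 FPKM in KO 1 and KO 2. Both KO-labelled values lay between the wild type values, so the groups overlapped. The group means were 105.2 ± 35.9 and 105.1 ± 8.62 FPKM (SD, n = 2). The log2 change, KO minus WT, was 0.04 ± 0.27 (standard error, 95% interval -0.65 to 0.73, adjusted p = 0.947, limma), and its sign turned without WT 1 (-0.31) and without KO 1 (-0.04). WT 2 was 1.64 times WT 1, outside counting error (95% Poisson intervals of 78.1 to 81.5 and 128.0 to 133.0 FPKM), and 3.8% of all genes tested differed as much between WT 1 and WT 2. The erythroid and macrophage markers summed to 1336 and 275.6 FPKM in WT 1 against 760.4 and 156.2 FPKM in WT 2, and their part in the Malat1 difference was not tested. Gm37376, on the strand opposite to Malat1 and wholly within it, was listed at 0 in every library.

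Neat1 (ENSMUSG00000092274, chromosome 19, 5824708 to 5845478, minus strand, lincRNA) was at 8.77 and 9.76 FPKM in wild type and at 9.99 and 10.41 FPKM in KO 1 and KO 2. KO 1 and KO 2 were both higher than either wild type library, an order that 19.7% of all genes tested shared, but the step from WT 2 to KO 1 was smaller than that between the wild type libraries. The log2 change was 0.13 ± 0.14 (95% interval -0.23 to 0.48, adjusted p = 0.666, limma), and it was positive under each alternative tried, from 0.06 (without WT 1) to 0.66 (with B lineage scaling). Its annotated transcripts run from 711 to 20771 bases, and a value over the whole gene does not separate the short from the long forms. The neighbour Frmd8, which lies 4223 bases upstream on the same strand, was at 20.26 and 19.43 against 20.56 and 22.31 FPKM (limma adjusted p = 0.707).

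Gas5 (ENSMUSG00000053332, chromosome 1, 161034422 to 161038539, plus strand), the host named for its rise in growth-arrested cells, was at 72.17 and 60.64 FPKM in wild type and at 55.47 and 43.79 FPKM in KO 1 and KO 2. KO 1 and KO 2 were both under the wild type range, an order that 31.7% of all genes tested shared, but WT 2 and KO 1 lay closer than the wild type libraries did to each other. Means were 66.4 ± 8.15 and 49.63 ± 8.26 FPKM (SD, n = 2), and the log2 change was -0.42 ± 0.19 (95% interval -0.90 to 0.06, adjusted p = 0.439, limma). Without KO 2 the change was -0.25. Zbtb37, which overlaps Gas5 on the other strand, was at 1.79 and 1.91 FPKM in wild type and 1.80 and 1.82 FPKM in KO 1 and KO 2 (adjusted p = 0.959, limma).

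Snhg1 (ENSMUSG00000108414, chromosome 19, 8723475 to 8726443, plus strand), host to 8 snoRNAs, was tightly grouped in wild type at 32.16 and 31.57 FPKM, and stood at 27.79 and 22.81 FPKM in KO 1 and KO 2. The wild type libraries differed by less than their counting error, at 1509 and 1539 fragments. The log2 change was -0.33 ± 0.16 (95% interval -0.73 to 0.07, adjusted p = 0.448, limma). Without KO 2 the change was -0.19. Slc3a2, a heavy chain of amino acid transporters whose gene starts 105 bases away on the other strand, was at 34.63 and 31.40 against 39.30 and 30.58 FPKM (limma adjusted p = 0.851), so its groups overlapped while those of Snhg1 did not. Wdr74, a ribosome assembly factor gene 9383 bases beyond the other end, was at 19.02 and 17.98 against 20.76 and 15.83 FPKM, and its groups overlapped as well.

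Snhg3 (ENSMUSG00000085241, chromosome 4, 132348014 to 132353686, minus strand), host to the H/ACA snoRNAs Snora73a and Snora73b, was at 9.76 and 9.08 FPKM in wild type and at 6.72 and 5.90 FPKM in KO 1 and KO 2. These groups lay further apart than the libraries within either of them. Its log2 change of -0.51 ± 0.15 (95% interval -0.88 to -0.14) had an unadjusted p of 0.0162 and an adjusted p of 0.345 in limma over all genes. The level rests on about 152, 147, 105 and 88 fragments. The 95% Poisson intervals were 8.27 to 11.4 and 7.67 to 10.7 FPKM in wild type, against 5.50 to 8.14 and 4.73 to 7.27 FPKM. Those of WT 2 and KO 1 overlap, which alone does not place their difference within counting error. Most Snhg3 exons are shared with other genes, as given above. The kit's strand use is not stated, so reads of Snhg3 and of Gm17300 on the other strand cannot be told apart. Rcc1, which overlaps Snhg3 on the same strand and encodes the exchange factor of RAN, was at 37.43 and 38.80 against 38.21 and 25.31 FPKM (limma adjusted p = 0.569). Gm17300 was at 5.06 and 4.35 against 4.13 and 2.55 FPKM, and Phactr4, 2236 bases upstream of Snhg3, at 14.58 and 15.46 against 13.90 and 11.56 FPKM.

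Snhg8 (ENSMUSG00000104960, chromosome 3, 123507552 to 123508404, minus strand), host to Snora24, was at 40.36 and 32.78 FPKM in wild type, 48.55 FPKM in KO 1 and 24.50 FPKM in KO 2. KO 1 was the highest and KO 2 the lowest library, so the group means of 36.57 ± 5.36 and 36.52 ± 17 FPKM (SD, n = 2) nearly coincided. Its log2 change was -0.07 ± 0.34 (95% interval -0.94 to 0.80, adjusted p = 0.923, limma), and without KO 2 it was 0.41.

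Epb41l4aos (ENSMUSG00000087590, chromosome 18, 33794892 to 33795986, plus strand), which lies on the strand opposite to Epb41l4a and holds 1 snoRNA gene, showed the same order at 25.61 and 24.93 FPKM in wild type, 32.30 FPKM in KO 1 and 16.61 FPKM in KO 2. KO 1 and KO 2 differed beyond counting error, with 95% Poisson intervals of 28.2 to 36.9 and 13.6 to 20.1 FPKM from about 220 and 108 fragments. The log2 change was -0.12 ± 0.32 (95% interval -0.92 to 0.69, adjusted p = 0.862, limma). Without KO 2 it was 0.34 and without KO 1 -0.58 (adjusted p = 0.0537, limma). Epb41l4a, the protein-coding neighbour 340 bases away, was at most 0.03 FPKM in each library, and the other silent neighbours of the hosts (Serpinc1, Prss12, Ndst3, Rab42 and Nrep) were at most 0.29 FPKM.

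Snhg12 (ENSMUSG00000086290, chromosome 4, 132308623 to 132311024, plus strand), host to Snora44, Snora61, Snora16a and Snord99, was at 14.73 and 14.45 FPKM in wild type, 20.24 FPKM in KO 1 and 12.88 FPKM in KO 2. It too was highest in KO 1 and lowest in KO 2, with log2 differences from the wild type mean of 0.45 and -0.17. The log2 change was 0.14 ± 0.23 (95% interval -0.45 to 0.73, adjusted p = 0.769, limma), and -0.17 without KO 1. Trnau1ap, 738 bases beyond the end of Snhg12 on the other strand, was at 8.55 and 7.62 against 7.78 and 6.64 FPKM (limma adjusted p = 0.653).

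KO 1 above and KO 2 below both wild type libraries was the order of 3 of the 8 genes and of 13.7% of all genes tested. KO 2 was below KO 1 for 7 of the 8 genes and for 63.1% of all genes, Neat1 being the exception. KO 2 was the lowest of the 4 libraries for all 6 host genes and for 51.4% of all genes tested. The ratio of KO 2 to KO 1 was 0.505 for Snhg8, 0.514 for Epb41l4aos and 0.636 for Snhg12, against 0.789, 0.821 and 0.878 for Gas5, Snhg1 and Snhg3. A difference between KO 1 and KO 2 as large was found in 5.31%, 5.95% and 17% of all genes for the first 3 hosts. For Gas5, Snhg1 and Snhg3 it was found in 43.3%, 52.2% and 70.4%. Summed over the 6 hosts, the level was 194.8 and 173.4 FPKM in wild type, 191.1 FPKM in KO 1 and 126.5 FPKM in KO 2. Beside these stand the B lineage sums (2387, 2445, 1911 and 1166 FPKM) and the neutrophil sums (27450, 25640, 35870 and 73050 FPKM). Their part in the host values was not tested. On the log2 scale, the median difference of the B lineage list from wild type was -0.05 in KO 1 and -0.95 in KO 2. Without KO 1, limma called 0 of the 8 genes against 7.1% of all genes, 2.88% as lower. The smallest adjusted p of the 8 there were 0.0537 for Epb41l4aos, 0.0606 for Snhg1 and 0.064 for Snhg3, with log2 changes of -0.58, -0.46 and -0.59. Scaled to the B lineage list, which moves the median of all genes from -0.09 to 0.43, the log2 changes of Gas5, Snhg1 and Snhg3 were 0.11, 0.20 and 0.02 and no longer negative, though below that median.

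**Figure D3:**
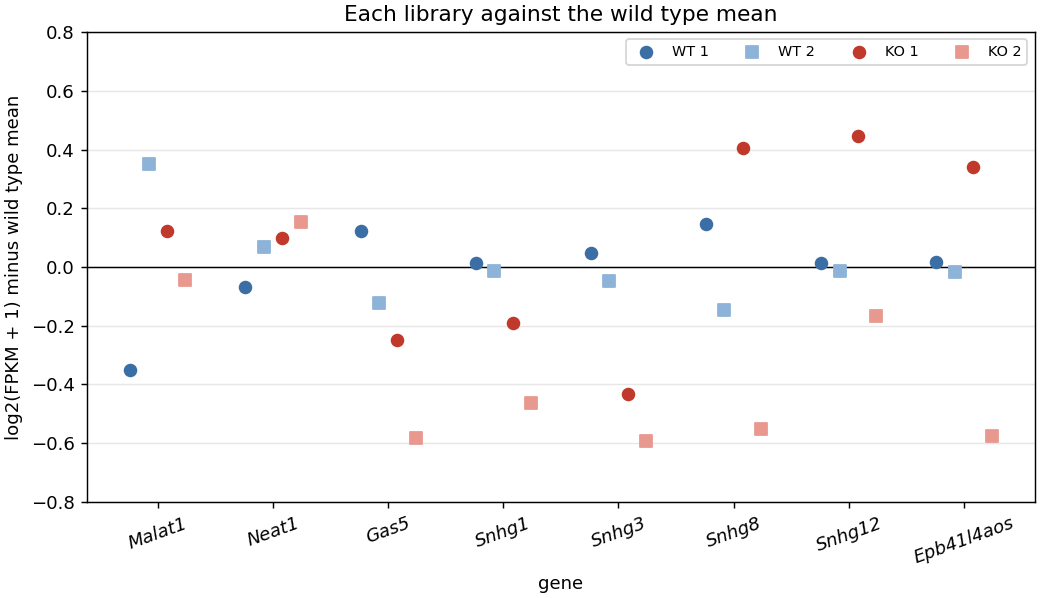
Difference of each library from the wild type mean on the log2(FPKM + 1) scale for each gene, with 1 point a library. Gas5, Snhg1 and Snhg3 have both KO-labelled points below both wild type points, while Snhg8, Snhg12 and Epb41l4aos have KO 1 above and KO 2 below them.

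**Figure D4:**
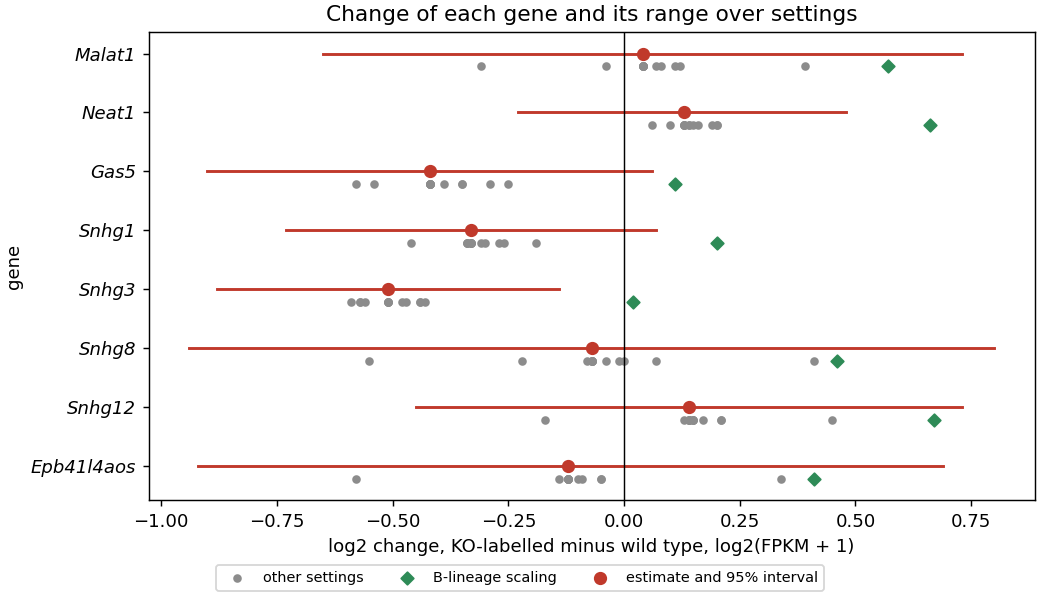
Log2 change of each gene, KO-labelled minus wild type, with its 95% interval (red), and its value under 14 alternative settings (grey points, and green diamonds for scaling to the B lineage list). The interval of Snhg3 lies below 0, those of the other 7 genes span 0, and scaling to the B lineage list moves all 8 genes upward.

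Other snoRNA host RNAs were also lower in KO 2 than in KO 1, 9 of 9 of them (63.1% of all genes were), without passing the test. Of 16 listed, 13 were found and 9 were tested, and 0 passed. Of these 9, 1 was below both wild type libraries (31.7% of all genes), 1 above both (19.7%) and 8 lowest in KO 2 (51.4%). Their median log2 difference from the wild type mean was 0.11 in KO 1 and -0.48 in KO 2, against 0.08 and -0.56 for the 6 hosts above and -0.01 and -0.17 for all genes tested. Snhg20 was at 4.82 and 3.66 against 3.12 and 2.84 FPKM, Snhg5 at 37.75 and 41.79 against 38.24 and 27.02 FPKM, and Snhg15 at 9.08 and 9.19 against 12.96 and 9.39 FPKM (limma adjusted p of 0.444, 0.539 and 0.559). Snhg15 was thus the exception to KO 2 as the lowest library. Snhg9 was listed at 0 in every library, and Snhg11, Snhg14 and Snhg18 were at or below 0.04 FPKM.

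Genes for the proteins that bind snoRNAs were lowest in KO 2 as well. The snoRNP list holds core and assembly proteins of snoRNA particles, and 16 of its 17 genes were found and tested. Of these 0 passed, all 16 had a negative change (61.7% of all genes did) and all 16 were lowest in KO 2 (51.4% were). Their median log2 difference from the wild type mean was 0.04 in KO 1 and -0.49 in KO 2, against -0.01 and -0.17 for all genes tested. Dkc1, the pseudouridine synthase of H/ACA particles, was at 29.85 and 30.08 against 26.46 and 20.60 FPKM, and Nop58, a core protein of C/D particles, at 16.16 and 16.53 against 14.61 and 10.12 FPKM (limma adjusted p of 0.452 and 0.461). Znhit3, an assembly factor, was at 7.23 and 6.36 against 5.41 and 4.74 FPKM (limma adjusted p = 0.432).

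Cytosolic ribosomal protein genes, the other large group of TOP genes, had 79 tested and 0 passed. Of these, 37 lay below both wild type libraries (46.8%, against 31.7% of all genes) and 77 were lowest in KO 2 (51.4% of all genes). On the log2 scale, their median difference from wild type was -0.08 in KO 1 and -0.45 in KO 2. For all genes tested it was -0.01 and -0.17. Rpl17 was at 21.32 and 19.05 against 12.13 and 10.66 FPKM, Rpl36a at 15.60 and 13.99 against 9.15 and 6.71 FPKM, and Rps15a at 113.95 and 113.68 against 77.69 and 76.98 FPKM (limma adjusted p of 0.276, 0.296 and 0.345). Ribosomal protein genes have many processed pseudogenes, so levels of single members are uncertain.

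Genes for proteins of the bodies that Malat1 and Neat1 occupy had changes that were negative or near 0, without a call. Nearest 0 were Son, Acin1 and Taf15, with log2 changes that round to 0, -0.01 and -0.03. Of 20 paraspeckle genes 0 passed and all 20 had a negative change (61.7% of all genes did). Of them 14 lay below both wild type libraries (70%, against 31.7% of all genes). Rbmx, an RNA-binding protein, was at 30.71 and 31.61 against 20.92 and 19.20 FPKM, Cpsf6, a cleavage factor of 3′ end formation, at 26.31 and 24.50 against 18.81 and 14.51 FPKM, and Tardbp at 62.37 and 63.96 against 51.57 and 37.64 FPKM (limma adjusted p of 0.296, 0.351 and 0.395). Of 20 nuclear speckle and splicing genes 0 passed, the change was negative for all 20, and 13 were under the wild type range in KO 1 and KO 2. Srsf1 was at 131.62 and 124.86 against 100.02 and 81.58 FPKM, Prpf4b, a splicing kinase, at 35.06 and 34.26 against 28.16 and 24.24 FPKM, and Clk1, another, at 31.45 and 34.86 against 26.50 and 23.91 FPKM (limma adjusted p of 0.376, 0.389 and 0.394). On the log2 scale, the median difference from wild type in KO 1 and KO 2 was -0.09 and -0.47 for the paraspeckle list. For the speckle and splicing list it was -0.08 and -0.41, and for all genes tested -0.01 and -0.17. The difference between these lists and either RNA was not tested.

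Genes that remove host transcripts and nuclear RNA showed no call either. Of 14 nonsense-mediated decay genes 0 passed (0.203% of all genes did) and 10 had a negative change, 71.4% against 61.7% of all genes. Upf3b was at 18.80 and 18.07 against 14.24 and 13.01 FPKM, Smg6 at 11.97 and 14.32 against 11.88 and 8.73 FPKM and Smg9 at 13.93 and 15.19 against 16.51 and 18.58 FPKM (limma adjusted p of 0.372, 0.500 and 0.487). Of 19 genes of the nuclear exosome and RNA turnover 0 passed and all 19 had a negative change. On the log2 scale, the median difference from wild type in KO 1 and KO 2 was -0.01 and -0.29 for the decay list. For the turnover list it was -0.05 and -0.36, and for all genes tested -0.01 and -0.17. Exosc9 was at 8.64 and 9.40 against 7.33 and 6.16 FPKM, Xrn2, the nuclear 5′ exonuclease, at 38.79 and 40.16 against 32.92 and 30.98 FPKM, and Exosc8 at 23.09 and 19.50 against 17.89 and 14.09 FPKM (limma adjusted p of 0.416, 0.440 and 0.440).

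**Figure D5:**
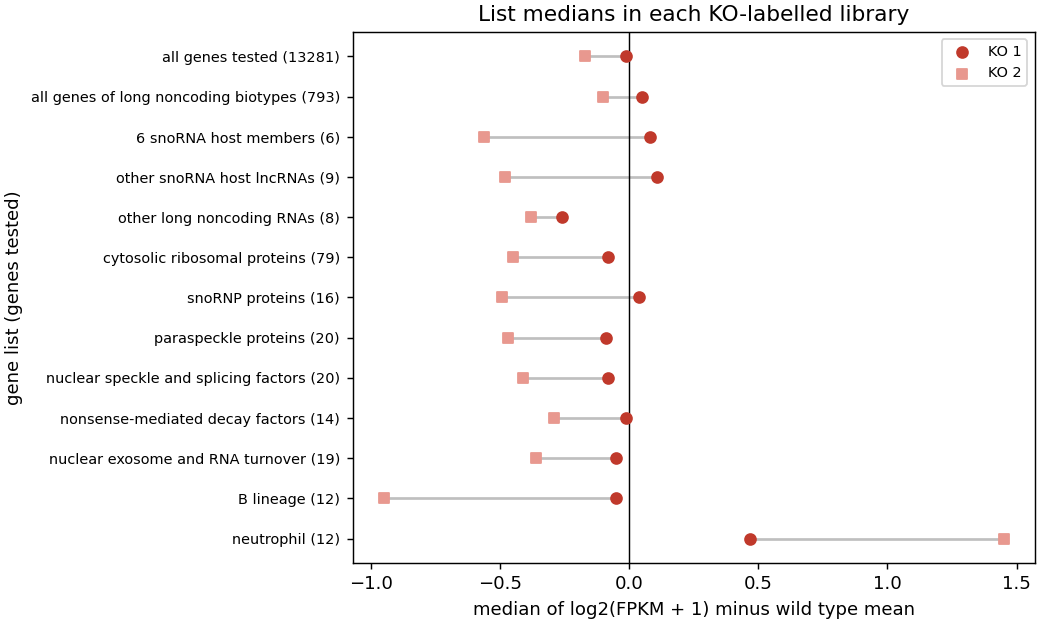
Median difference from the wild type mean on the log2(FPKM + 1) scale in KO 1 (circles) and KO 2 (squares) for each gene list, with the number of genes tested in parentheses. The host genes and the lists around them sit lower in KO 2 than in KO 1, the B lineage list reaches -0.95 and the neutrophil list 1.45 in KO 2.

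Other long noncoding RNAs that host no listed snoRNA were lower in both KO-labelled libraries for most of those tested, without a call. Of 22 listed, 18 were found and 8 were tested. Of these 0 passed and 7 lay below both wild type libraries (87.5%, against 31.7% of all genes and 24.2% of 793 genes of long noncoding biotypes). Mir17hg, the precursor of the miR-17 cluster, was at 7.44 and 7.17 against 5.86 and 3.74 FPKM, Dleu2 at 4.57 and 4.65 against 3.35 and 3.38 FPKM, and 2900097C17Rik, the annotation's name for Norad, at 40.80 and 39.94 against 33.32 and 30.35 FPKM (limma adjusted p of 0.408, 0.409 and 0.416). Their median difference from wild type was -0.26 in KO 1 and -0.38 in KO 2, where Malat1 was at 0.12 and -0.04 and Neat1 at 0.10 and 0.15.

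The pattern of Malat1 over the 4 libraries had few close matches. By Euclidean distance between log2(FPKM + 1) values relative to the wild type mean, 1 gene tested lay within 0.1 of it, Gm43300 at 1.98 and 4.11 against 3.15 and 2.78 FPKM (distance 0.0625), followed by Gm28439 (0.127) and Gm40787 (0.153). Neat1 had 148 genes within 0.1, with Prdm2, Micall1 and Zfand5 the nearest (0.0248, 0.0259 and 0.0264). Gas5 had 43, with Fntb, Zfp637 and Rps27a the nearest (0.0237, 0.0279 and 0.0284). Rps27a, a gene for a ribosomal protein fused to ubiquitin, was at 13.73 and 11.37 against 10.34 and 8.18 FPKM. Genes with small changes have many neighbours by this measure, and 4 libraries give it little power to separate patterns.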

How the data were processed

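Per the labels' protocols, sorted cells were lysed in Trizol, and Illumina libraries took 1 µg of RNA of a RIN (an RNA integrity score) above 6.5. The authors deposited FPKM for 55573 Ensembl genes in each of 4 libraries, per the file headers. The submitters' processing notes list the build mm9, whereas the deposited values fitted exon lengths annotated on GRCm38, as given below. For the aligner, counter, strand use and RNA selection, the sources used here give nothing. Symbols and exon lengths came from GENCODE M21 (GRCm38), which matched 55480 identifiers, and coordinates are from it. FPKM times exon length fell on whole fragments (tolerance 0.15) in 99.5% to 99.6% of low values, which gave the fragment estimates. Poisson intervals cover counting error only.

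Limma 3.58.1 (R 4.3.3) with a mean-variance trend was fitted to log2(FPKM + 1) for genes whose mean reached 1 FPKM in WT or KO, with Benjamini-Hochberg adjustment over all 13281 genes and no block. The scale understates changes of low genes. With 2 against 2 an exact permutation p cannot go below 0.333. Errors with log2 changes are standard errors. Libraries of a group differed beyond counting error (7.74 for WT and 54.7 for KO, as chi-square over its degrees of freedom), so none was treated as a copy of another. That does not show separate animals. Alternatives were another pseudocount, filters, scalings, voom, leaving out each library, and replicate pairing. From each list the 3 tested genes with the smallest p are named, with neighbours of the 8 genes (some neighbours are not reported here), and for Malat1, Neat1 and Gas5 the 3 nearest patterns. Adar, Gm17300, Son, Acin1, Taf15, single marker genes and genes at or near 0 FPKM are named outside this rule and were chosen after their values were seen. The genes and lists were chosen with earlier results of these data known.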

Additional observations from a re-analysis of the deposited data

How the results depend on the processing

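The call of 0 of the 8 genes was unchanged under all 14 alternatives. Over all genes, 27 calls became 15 with a pseudocount of 0.1, 0 with no filter on low values, 76 with B-lineage scaling and 9 with voom on estimated fragments. With no filter 2257 genes had an unadjusted p under 0.05 in limma. Leaving out 1 library gave between 0 (without KO 2, where 1969 had an unadjusted p under 0.05) and 948 calls (without KO 1), with 14 without WT 1. In these fits the lone library of a group is assumed to vary like the other group. B-lineage scaling turned the sign for Gas5 (0.11), Snhg1 (0.20), Snhg3 (0.02), Snhg8 (0.46) and Epb41l4aos (0.41). Without WT 1 it turned for Malat1 (-0.31) and Snhg8 (0.07), without KO 1 for Malat1 (-0.04) and Snhg12 (-0.17), and without KO 2 for Snhg8 (0.41) and Epb41l4aos (0.34). These 11 are all the sign changes among 112 values. The cause was not tested. Over the fits that left out 1 library, values ran from -0.31 to 0.39 for Malat1, 0.06 to 0.20 for Neat1, -0.58 to -0.25 for Gas5, -0.46 to -0.19 for Snhg1, -0.59 to -0.43 for Snhg3, -0.55 to 0.41 for Snhg8, -0.17 to 0.45 for Snhg12 and -0.58 to 0.34 for Epb41l4aos. The replicate block gave 68 calls and a crossed pairing, chosen after seeing the data because same-numbered libraries deviated apart (correlation across genes -0.149), gave 213. Neither called any of the 8 genes.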
